A study of Mus musculus with 18 samples.

Results

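RNA of the 10 genes that encode the GATOR1 and GATOR2 complexes and the core of mTORC1 was described in left ventricles of C57BL/6 mice. The 10 genes were chosen by name, out of 24421 gene symbols in each count table, and all 10 were found and tested. They are Depdc5, Nprl2 and Nprl3 (GATOR1), Mios, Wdr24, Wdr59, Seh1l and Sec13 (GATOR2), and Mtor and Rptor (mTORC1 core). The 18 libraries fell into 6 groups of 3. Sesn2-KO mice lacked sestrin 2, were 3 to 4 months old and were bred in the submitters' laboratory. Aged WT mice were 24 to 26 months old and came from Charles River. Young WT mice were 3 to 4 months old and came from Jackson. Each kind of mouse was studied after ischaemia and reperfusion (IR) or after sham surgery. IR meant closure of the left anterior descending artery for 45 min and then reperfusion for 24 h, and sham surgery meant a thoracotomy without closure. The supplier of the mice changed with age and with genotype, so these cannot be told apart. The labels give neither the allele design of the knockout nor ties of samples to litters or surgery days, so p-values reflect only how far these samples spread.

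mTORC1 is a kinase complex that promotes protein synthesis and growth when nutrients are present and restrains autophagy. It is recruited to the lysosome by Rag GTPases. GATOR1 switches the Rag GTPases off, GATOR2 counteracts GATOR1, and sestrins bind GATOR2 when leucine is scarce, which keeps mTORC1 inactive. In the heart mTORC1 is known for its part in hypertrophic growth and in the handling of ischaemic stress. These are properties of proteins, and the measurements here are of RNA only.

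Levels are CPM, a gene's share of its library's gene counts on the usual CPM scale. Those gene counts totalled 9404531 to 14458047. A value after ± is an SD over 3 libraries for a level and a standard error for a log2 fold change. Intervals are 95% intervals. Adjusted p-values are from edgeR's quasi-likelihood test with Benjamini-Hochberg adjustment over 13859 genes, unless another tool is named, and genes with an adjusted p below 0.05 count as called. Libraries carry the name of their group and their replicate number. In 1 library of each group (Sesn2-KO IR 3, Sesn2-KO sham 3, aged IR 3, aged sham 1, young IR 3 and young sham 1) genes deviated from their group mean in step with transcript length (rank correlation 0.31 to 0.48). The other libraries were at -0.43 (young sham 2) to -0.01 (aged sham 3), so leaving out these 6 does not make the rest alike in this respect. The 3 longest members by transcript, Mtor, Depdc5 and Rptor, were above their group means in 4, 5 and 5 of these 6 libraries, Wdr59 in 6, and the 2 shortest, Sec13 and Nprl2, in 0.

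Sesn2, the targeted gene, was at 0.237 ± 0.142 CPM in Sesn2-KO IR hearts and 0.17 ± 0.182 CPM in Sesn2-KO sham hearts, against 3.71 ± 1.05 CPM in young IR hearts and 3.87 ± 1.87 CPM in young sham hearts. The libraries thus followed their genotype labels. Cardiomyocyte markers fitted heart muscle: the summed level of 8 genes was 28400 to 39900 CPM over the 18 libraries. This sum does not tell ventricle from atrium. The summed level of 4 atrial markers was 899 to 1750 CPM in Sesn2-KO IR hearts and 144 to 712 CPM in young IR hearts. Most of that sum was Nppa alone, so it does not settle how much atrial tissue the samples held. In these bulk samples fewer cells of a type and less RNA per cell cannot be told apart.

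Of the 10 members, Mtor differed among the 6 groups and the other 9 did not pass the test. The joint test gave Mtor a p of 0.000736 (adjusted p = 0.00936), while the adjusted p-values of the others were 0.161 for Mios, 0.193 for Seh1l, 0.249 for Sec13 and 0.56 to 0.774 for the remaining 6. Of all genes tested, 18.1% were called in this test, so 1 of 10 members is no larger a share. Mtor had its lowest mean in Sesn2-KO IR hearts and its highest in aged sham hearts. Its call held in 18 of 18 fits that left out 1 library each (adjusted p = 0.00736 to 0.0487) and was lost without the 6 length-tilted libraries together (adjusted p = 0.0795).

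**Figure D1:**
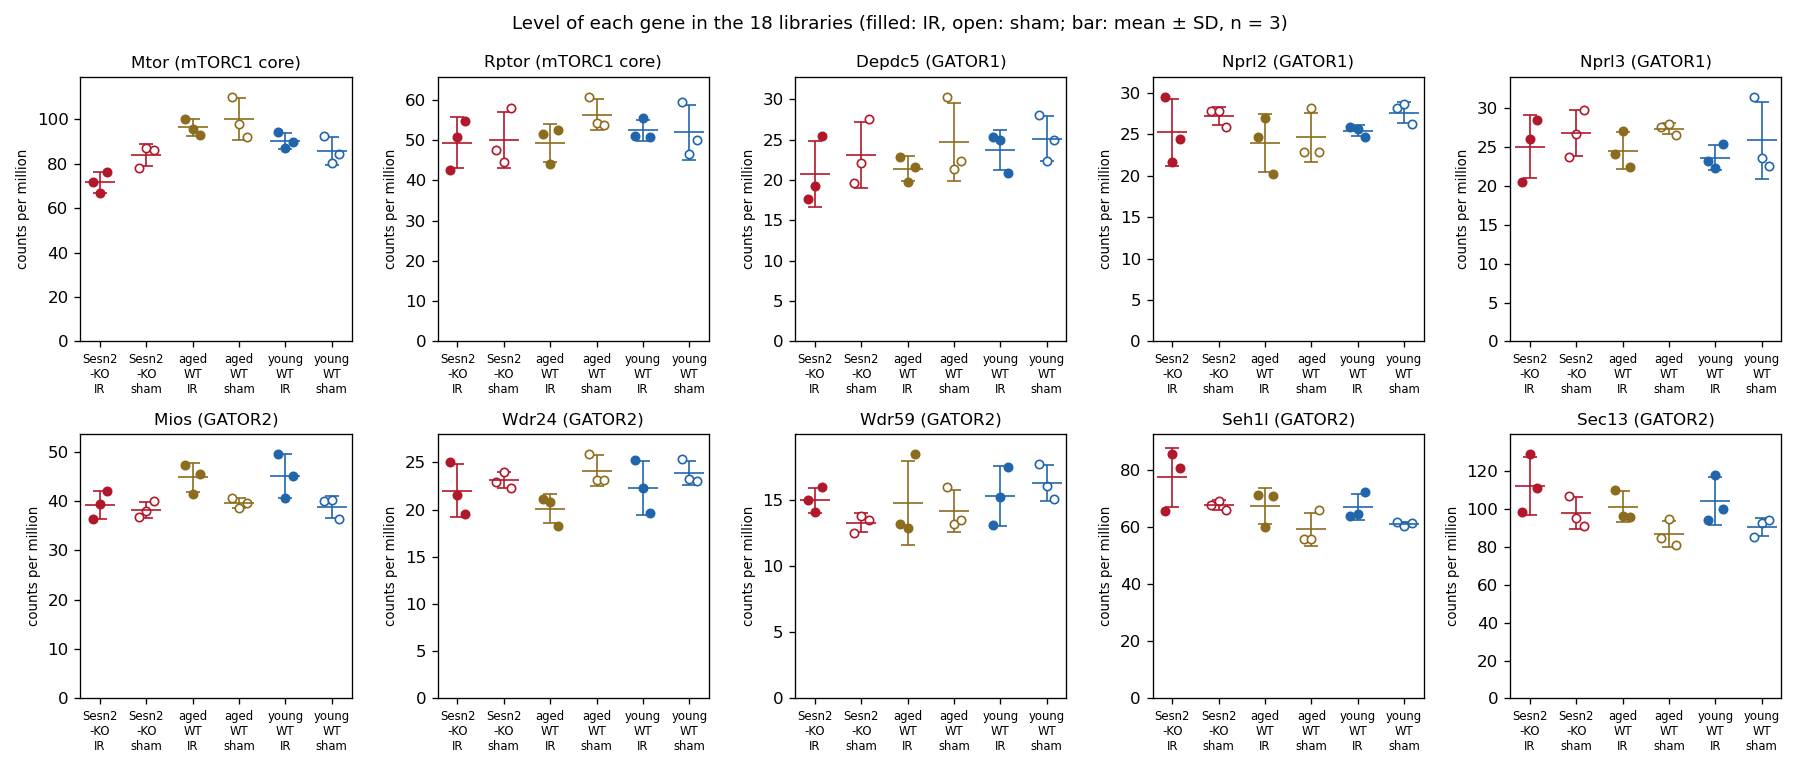
CPM (y axis, from 0) of the 10 genes in each library, by group on the x axis; points are libraries, and the horizontal mark with its bar is the mean ± SD of 3. The 3 Sesn2-KO IR points of Mtor, at 66.8 to 76.2 CPM, lie below every other point in that panel.

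The 250 bases before the start sites of Mtor and Sec13 are shown because these were the members called in any comparison. They are from RefSeq (GRCm38.p6), whose promoter table matched 8 of the 10 members. The Mtor window lies on chr4:148448332-148448581 (+ strand) and the Sec13 window on chr6:113740682-113740931 (- strand). The gene loci given below are from GENCODE, which places the start of Sec13 at 113740743, inside this window, and that of Mtor at 148448611. Distances here are from the RefSeq start sites. Capitals mark CCAAT (the CCAAT box), GGGCGG (the GC box) and CCACG (the end of the endoplasmic reticulum stress element), each read on both strands.
Mtor: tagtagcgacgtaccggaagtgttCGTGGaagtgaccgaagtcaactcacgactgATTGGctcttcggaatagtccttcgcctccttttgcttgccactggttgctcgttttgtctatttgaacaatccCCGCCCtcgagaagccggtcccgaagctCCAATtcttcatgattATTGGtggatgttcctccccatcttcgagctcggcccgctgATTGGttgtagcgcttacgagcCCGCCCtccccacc
Sec13: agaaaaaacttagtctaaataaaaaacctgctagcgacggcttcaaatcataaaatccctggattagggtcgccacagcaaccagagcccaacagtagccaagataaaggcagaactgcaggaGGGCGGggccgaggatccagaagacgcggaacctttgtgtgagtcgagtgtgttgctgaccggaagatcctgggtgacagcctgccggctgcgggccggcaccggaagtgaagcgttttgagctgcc
The Mtor window held CCAAT at 4 places, at 195, 93, 77 and 36 bases before the start site, GGGCGG at 2 places and CCACG at 1. The Sec13 window held GGGCGG at 1 place, 127 bases before the start site, and neither CCAAT nor CCACG. Of 32851 mouse promoters of this length, 33.8% held CCAAT, 32.7% held GGGCGG and 28.3% held CCACG. Neither window held CACGTG, the core of the element bound by TFEB and TFE3 (in 6.02% of promoters), TGATGCAA, an element bound by ATF4 (0.791%), TGACGTCA, the cyclic AMP response element (1.55%) or TATAAA, the TATA box (12.4%). Both windows were 54.4% G and C, against a median of 52.4% over all promoters.

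Mtor encodes the kinase itself (chr4:148448611-148557683, + strand, GRCm38). Its level was 71.5, 66.8 and 76.2 CPM in Sesn2-KO IR hearts, 77.9, 87.1 and 86 CPM in Sesn2-KO sham hearts, 100, 95.5 and 92.8 CPM in aged IR hearts, 110, 97.8 and 91.7 CPM in aged sham hearts, 94.2, 86.8 and 89.7 CPM in young IR hearts, and 92.5, 80.1 and 84.4 CPM in young sham hearts. The 3 Sesn2-KO IR libraries were the lowest of the 18. In the order of group means, neighbouring groups overlapped from aged sham (99.9 ± 9.45) through aged IR (96.2 ± 3.89), young IR (90.2 ± 3.72) and young sham (85.7 ± 6.29) to Sesn2-KO sham (83.7 ± 5.03), and the last step to Sesn2-KO IR (71.5 ± 4.71) had no overlap. These means rest on 705 to 1594 counts per library, a counting SD of 3.77% to 2.5%.

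In pairwise comparisons Mtor was not called by edgeR, although its groups did not overlap in 4 of them (in 5 after TMM scaling, which adjusts library sizes for composition, with aged over young WT in sham hearts). After IR its log2 fold change, Sesn2-KO over young WT, was -0.37 ± 0.10 (interval -0.58 to -0.16, adjusted p = 0.121), in a comparison where 0.433% of genes were called. DESeq2 called it there (adjusted p = 0.00928), and leaving out 1 library gave log2 fold changes on the same side with edgeR adjusted p-values of 0.113 to 0.554, the highest without Sesn2-KO IR 2. In sham hearts the same contrast gave -0.03 (interval -0.24 to 0.17, adjusted p = 0.913). Within Sesn2-KO, IR against sham gave -0.28 ± 0.10 (interval -0.49 to -0.07, adjusted p = 0.225), against 0.06 (interval -0.15 to 0.26, adjusted p = 0.802) within young WT and -0.04 (interval -0.25 to 0.16, adjusted p = 0.834) within aged WT. The IR response in Sesn2-KO minus that in young WT was -0.34 (interval -0.63 to -0.05, adjusted p = 0.856), so the responses were not shown to differ.

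Set against aged WT, a contrast added after the levels by group had been seen, Mtor in Sesn2-KO was at -0.50 ± 0.10 after IR (interval -0.71 to -0.29, adjusted p = 0.0984), where 0.0722% of genes were called, and at -0.26 ± 0.10 in sham hearts (adjusted p = 0.178), where 2.32% were. The IR value was called by DESeq2 (adjusted p = 0.000214), by limma voom (adjusted p = 0.0169) and with the length slope of each library as a covariate (adjusted p = 0.0184). Of 10 alternative settings 4 called it, and the highest adjusted p among the 10 was 0.707. It was called in 0 of 18 fits that left out 1 library (edgeR adjusted p = 0.0632 to 0.425). Aged against young WT gave 0.23 ± 0.10 in sham hearts (interval 0.02 to 0.44, adjusted p = 1) and 0.13 (interval -0.08 to 0.34, adjusted p = 1) after IR. These contrasts share libraries and are given side by side. Without the 6 length-tilted libraries, the Mtor values after IR were -0.43 for Sesn2-KO over young WT (edgeR adjusted p = 0.122) and -0.58 for Sesn2-KO over aged WT (edgeR adjusted p = 0.458). The 6 Sesn2-KO libraries spanned 66.8 to 87.1 CPM with a median of 77.1, and the 12 WT libraries spanned 80.1 to 110 CPM with a median of 92.7.

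Marker values of the same hearts were as follows. None of 8 cardiomyocyte markers (lowest adjusted p = 0.183) and none of 4 atrial cardiomyocyte markers (lowest adjusted p = 0.0755) was called between Sesn2-KO IR and young IR hearts. All 4 atrial markers were nevertheless higher in Sesn2-KO IR hearts, with a median log2 fold change of 6.09. All 4 had an unadjusted p below 0.05 there, beside 12.7% of all genes. Among the 6 groups all 4 were called, beside 18.1% of all genes. In young IR hearts 1 of the 4 atrial markers was at 0 CPM in all 3 libraries. For IR against sham, the median log2 fold change of the atrial markers was -3.69 in young WT, -3.46 in aged WT and 2.96 in Sesn2-KO. For Sesn2-KO over young WT in sham hearts it was -0.50. The summed cardiomyocyte markers were 28400 to 32500 CPM in Sesn2-KO IR hearts, against 31400 to 35500 CPM in young IR hearts, with overlap. Of the atrial markers, Nppa made up most of the sum, at 1010, 1750 and 807 CPM in Sesn2-KO IR hearts against 139, 704 and 710 CPM in young IR hearts. In Sesn2-KO IR 2, which had the lowest Mtor and the highest Nppa of these 6 hearts, the other 3 atrial markers were lower than in the other Sesn2-KO IR hearts, at 0.501 CPM for Myl7, 7.09 CPM for Myl4 and 0.167 CPM for Sln. Mtor also lies on the chromosome of Sesn2, 15.9 Mb from it. The part of these values in the Mtor levels was not tested.

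Rptor (chr11:119602905-119899576, + strand) encodes raptor, the scaffold that presents substrates to the kinase. It was not called in any comparison, and its group means were 49.4 to 56.3 CPM. Its level was 42.5, 50.8 and 54.9 CPM in Sesn2-KO IR hearts, against 51, 55.5 and 50.9 CPM in young IR hearts, with overlap. The log2 fold change was -0.12 (interval -0.38 to 0.14, adjusted p = 0.723). The widest step between IR and sham was in aged WT, with 51.6, 44 and 52.6 CPM after IR against 60.8, 54.3 and 53.9 CPM in sham hearts. Those groups did not overlap, and the log2 fold change was -0.18 (interval -0.44 to 0.08, adjusted p = 0.411).

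IR against sham, averaged over the 3 kinds of mice, asked whether reperfused hearts carried other levels of these genes. Sec13 rose, and none of the other 9 members passed the test. In this comparison 26.7% of all genes were called (15.8% higher and 10.9% lower), so 1 called member of 10 is a lower share than the background. By sign, 4 of the 5 GATOR2 genes had positive values, and the 3 GATOR1 genes and both core genes had negative ones. The median log2 fold change was 0.12 for GATOR2, -0.15 for GATOR1 and -0.09 for all 10 members, beside -0.00 for all genes tested. At an unadjusted p below 0.05 there were 4 members, all of GATOR2, beside 38.8% of all genes, so this count is near the background too.

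**Figure D2:**
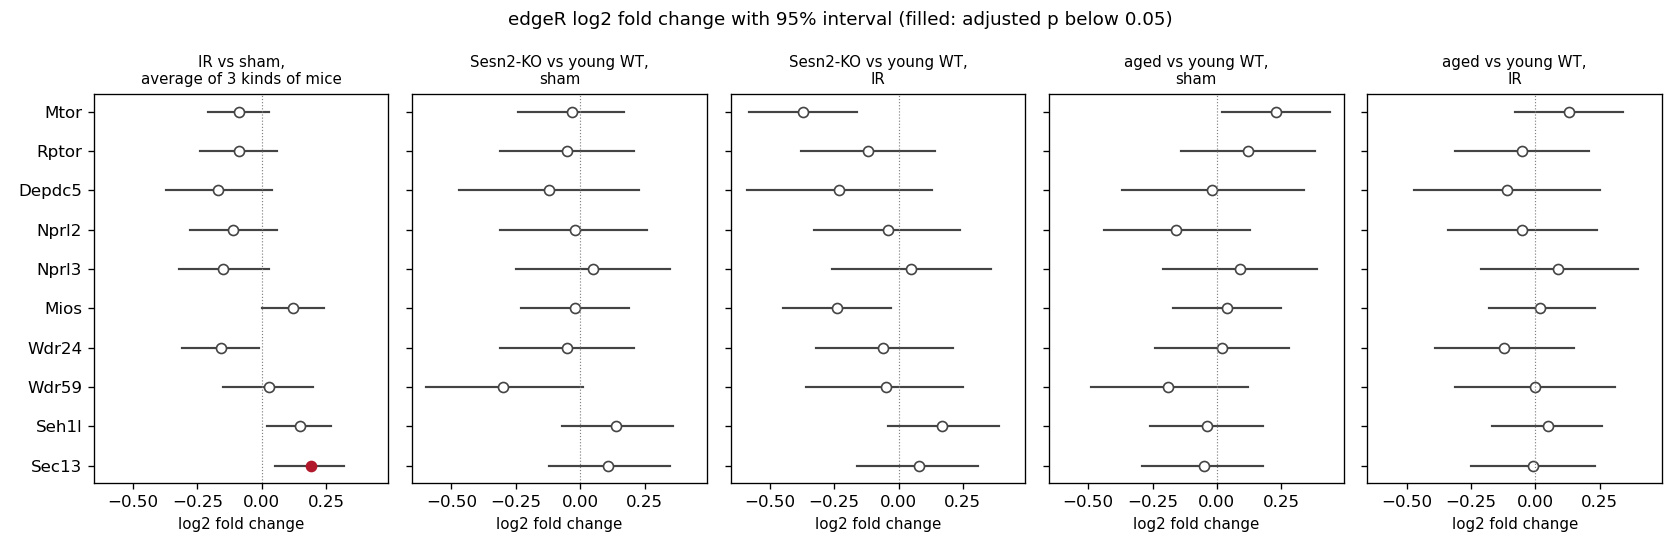
edgeR log2 fold change (x axis) with 95% interval for each of the 10 genes (rows) in 5 comparisons (panels); filled points have an adjusted p below 0.05. Sec13 in the averaged IR comparison is the filled point, and the Mtor interval of the panel for Sesn2-KO and young WT after IR runs from -0.58 to -0.16.

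Sec13 (chr6:113728062-113740743, - strand) encodes a beta-propeller protein that serves in GATOR2, in the outer layer of the COPII vesicle coat and in the Y complex of the nuclear pore. Its level was 98.1, 129 and 111 CPM in Sesn2-KO IR hearts, against 107, 95.3 and 91.1 CPM in Sesn2-KO sham hearts. It was 110, 96.1 and 95.6 CPM in aged IR hearts, against 84.7, 94.5 and 80.9 CPM in aged sham hearts, and 94.1, 118 and 100 CPM in young IR hearts, against 84.9, 92.4 and 93.9 CPM in young sham hearts. IR and sham libraries did not overlap in aged and young WT and overlapped in Sesn2-KO. The log2 fold change averaged 0.19 ± 0.06 (interval 0.05 to 0.32, adjusted p = 0.0428), with 0.15, 0.23 and 0.18 in Sesn2-KO, aged WT and young WT, none of them called alone by edgeR (adjusted p = 0.563, 0.234 and 0.385). limma voom called it in aged WT (0.30, adjusted p = 0.0275).

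The Sec13 call was lost in 12 of 18 fits that left out 1 library (adjusted p = 0.021 to 0.102), and its log2 fold change stayed between 0.15 and 0.23 over all settings. It was also lost with DESeq2 size factors (adjusted p = 0.0603), with the length slope as a covariate (adjusted p = 0.0572) and without the length-tilted libraries (adjusted p = 0.237). Cell type markers were also called in the same contrast, where 15.8% of all genes were called higher and 10.9% lower. Called higher were 5 of 5 neutrophil, 4 of 6 fibroblast and 2 of 7 macrophage and monocyte markers. So were 1 of 4 smooth muscle and 1 of 4 atrial markers, while 3 of the 4 atrial markers had negative values. Called lower were 2 of 8 cardiomyocyte and 1 of 5 endothelial markers. Summed neutrophil markers (5 genes) were 72 to 147 CPM in Sesn2-KO IR hearts against 28.4 to 80.1 CPM in Sesn2-KO sham hearts, 83.8 to 158 CPM in aged IR hearts against 4.84 to 16.3 CPM in aged sham hearts, and 53.2 to 113 CPM in young IR hearts against 4.77 to 6.57 CPM in young sham hearts. Summed fibroblast markers (6 genes) had medians of 2610, 2500 and 2850 CPM in Sesn2-KO, aged and young IR hearts, against 2220, 1580 and 1550 CPM in the matching sham hearts. The summed cardiomyocyte markers had medians of 29400, 31400 and 32900 CPM in Sesn2-KO, aged and young IR hearts, against 32900, 39400 and 39700 CPM in the matching sham hearts. Their part in the Sec13 result, and in the other IR values given here, was not tested.

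Seh1l encodes the other subunit that GATOR2 shares with the Y complex, and in human cells Seh1l with Wdr24 forms the site bound by sestrin 2. Its level was 65.8, 85.8 and 80.8 CPM in Sesn2-KO IR hearts against 67.8, 69.4 and 66 CPM in Sesn2-KO sham hearts, 71.2, 60.2 and 70.9 CPM in aged IR hearts against 56, 55.9 and 66.1 CPM in aged sham hearts, and 64.1, 64.6 and 72.5 CPM in young IR hearts against 61.8, 60.4 and 61.6 CPM in young sham hearts. IR and sham libraries overlapped in Sesn2-KO and aged WT and not in young WT, where they overlapped after TMM scaling (62.5 to 71.4 CPM after IR against 60.8 to 63.1 CPM in sham hearts). The averaged log2 fold change was 0.15 ± 0.06 (interval 0.02 to 0.27, adjusted p = 0.0736). In sham hearts every Sesn2-KO library was above every young one, with a log2 fold change of 0.14 (interval -0.07 to 0.36, adjusted p = 0.497).

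Mios (chr6:8209222-8236274, + strand), the GATOR2 subunit bound by the arginine sensor Castor1 in human cells, was at 36.3, 39.4 and 42 CPM in Sesn2-KO IR hearts against 36.7, 38 and 40 CPM in Sesn2-KO sham hearts. It was at 47.3, 41.5 and 45.6 CPM in aged IR hearts against 40.7, 38.7 and 39.7 CPM in aged sham hearts, and at 49.6, 40.7 and 45.1 CPM in young IR hearts against 40, 40.3 and 36.3 CPM in young sham hearts. In both WT kinds the IR libraries lay above the sham libraries, and in Sesn2-KO they overlapped. After TMM scaling young WT overlapped as well, at 39.3 to 50.8 CPM after IR against 37.1 to 40.5 CPM in sham hearts. The log2 fold changes were -0.02 (interval -0.22 to 0.19) in Sesn2-KO, 0.19 (interval -0.02 to 0.39) in aged WT and 0.20 (interval -0.01 to 0.41) in young WT. The averaged value was 0.12 (adjusted p = 0.118), and the Sesn2-KO response minus the young WT response was -0.22 (interval -0.51 to 0.08, adjusted p = 1), so a difference in response was not shown. Mios in Sesn2-KO IR hearts set against young IR hearts was at -0.24 (interval -0.45 to -0.03, adjusted p = 0.32).

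Wdr24 (chr17:25823627-25828730, + strand) and Wdr59 (chr8:111448797-111522092, - strand) encode subunits with WD40 repeats and RING domains. Wdr24 was at 25, 21.5 and 19.5 CPM in Sesn2-KO IR hearts against 22.9, 24 and 22.3 CPM in Sesn2-KO sham hearts, 21.1, 20.8 and 18.3 CPM in aged IR hearts against 25.9, 23.1 and 23.1 CPM in aged sham hearts, and 25.2, 22.3 and 19.6 CPM in young IR hearts against 25.3, 23.2 and 23 CPM in young sham hearts. It was the GATOR2 gene with a negative averaged value, -0.16 ± 0.07 (interval -0.31 to -0.01, adjusted p = 0.113), and its IR and sham libraries did not overlap in aged WT. limma voom (-0.18, adjusted p = 0.0154) and the fit with the length slope (-0.21, adjusted p = 0.0328) called it, and without the length-tilted libraries it was at -0.07 (edgeR adjusted p = 0.606). Wdr59 averaged 0.03 between IR and sham (interval -0.15 to 0.20, adjusted p = 0.841). In sham hearts Wdr59 was at 12.5, 13.8 and 13.5 CPM in Sesn2-KO, against 17.7, 16.1 and 15.1 CPM in young WT. Those groups did not overlap, and the log2 fold change was -0.30 (interval -0.60 to 0.01, adjusted p = 0.283). Wdr59 had the fewest counts of the members, 121 to 253 per library, a counting SD of 9.09% to 6.29%.

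The GATOR1 genes had group means of 20.7 to 25.1 CPM for Depdc5, 23.9 to 27.6 CPM for Nprl2 and 23.6 to 27.3 CPM for Nprl3, and were not called in any comparison. Depdc5 (chr5:32863701-32994236, + strand), the subunit that contacts the Rag GTPases, was at 17.6, 19.2 and 25.4 CPM in Sesn2-KO IR hearts against 19.6, 22.1 and 27.5 CPM in Sesn2-KO sham hearts, and its averaged IR log2 fold change was -0.17 (interval -0.37 to 0.04, adjusted p = 0.218). Nprl2 (chr9:107542226-107545706, + strand), which carries the catalytic residue in human GATOR1, averaged -0.11 (interval -0.28 to 0.06, adjusted p = 0.316). Its IR and sham libraries did not overlap in young WT, at 25.9, 25.6 and 24.6 CPM after IR against 28.1, 28.6 and 26.2 CPM in sham hearts. Nprl3 (chr11:32225628-32267707, - strand), the partner of Nprl2, averaged -0.15 (interval -0.32 to 0.03, adjusted p = 0.2). Of the exon bases of Nprl3, 17.7% are shared with Mpg on the opposite strand, and the strand setting of the counting is not given in the sources used here, so reads of the shared stretch cannot be assigned with certainty.

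Within single kinds of mice no member was called between IR and sham by edgeR. At an unadjusted p below 0.05 there was 1 member in Sesn2-KO (Mtor) and 0 in aged and young WT, beside 14.7%, 23.7% and 21% of all genes, and limma voom called 1 (Sec13, in aged WT) where DESeq2 called 0. The backgrounds differed: 7.61% of genes were called in aged WT, 6.07% in young WT and 0 in Sesn2-KO, where DESeq2 called 140 and limma voom 1235. Members whose IR and sham libraries did not overlap numbered 2 of 10 in Sesn2-KO, 4 in aged WT and 4 in young WT, beside 18.1%, 28.7% and 22.3% of all genes. After TMM scaling the members numbered 1, 4 and 2. The shares of all genes without overlap, here and below, are for CPM before TMM scaling. They were not computed after it, so the scaled counts have no background beside them. Neither Sesn2-KO against young WT in sham hearts nor aged against young WT called a member, with backgrounds of 5.11% for the genotype contrast and of 0.152% in sham hearts and 0.0649% after IR for age. At an unadjusted p below 0.05 there were 0 members in the first (19% of all genes), 1 (Mtor) for age in sham hearts (4.44%) and 0 for age after IR (3.99%), and DESeq2 and limma voom called none in these 3. Members whose groups did not overlap numbered 2 of 10 for Sesn2-KO against young WT in sham hearts (25.4% of all genes) and 1 of 10 after IR (12.7%). They numbered 1 of 10 for Sesn2-KO against aged WT in sham hearts (24% of all genes) and 1 of 10 after IR (12.6%), and 0 of 10 for aged against young WT in sham hearts (12.3%) and after IR (7.99%). After TMM scaling Seh1l was added for Sesn2-KO against aged WT in sham hearts, Mios after IR, and Mtor for age in sham hearts. At an unadjusted p below 0.05 there were 2 members (Mtor and Mios) for Sesn2-KO after IR against either kind of WT, beside 12.7% of all genes against young WT and 7.71% against aged WT, and 1 (Mtor) against aged WT in sham hearts (16.8%). The difference of IR responses called 0.0577% of genes for Sesn2-KO and 0 for aged WT, with 1 member (Mtor, beside 5.55% of all genes) and 0 members (1.1%) at an unadjusted p below 0.05, and no member by DESeq2 or limma voom.

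Levels of different genes can be compared only per length. Per kilobase of the longest annotated transcript and over 18 libraries, Sec13 was highest at 61.7 ± 7.61 CPM per kb (SD), followed by Seh1l at 18.8, Nprl2 at 14.8, Mios at 11, Mtor at 10.3, Rptor at 7.83, Nprl3 at 7.21, Wdr24 at 7.19, Wdr59 at 2.92 and Depdc5 at 2.81. The subunits of GATOR2 thus spanned 2.92 to 61.7 CPM per kb and those of GATOR1 2.81 to 14.8. With the mean length of each gene's transcripts in place of the longest, Mtor moved to the second place at 28.4 CPM per kb and Depdc5 passed Wdr59, while the order within GATOR1, within GATOR2 and within the core was the same.

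**Figure D3:**
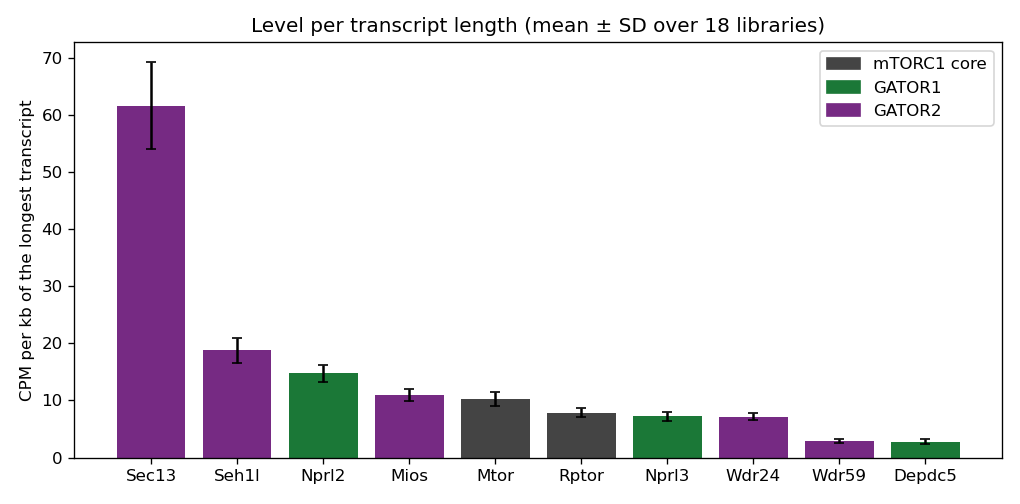
CPM per kilobase of the longest transcript (y axis, from 0) for the 10 genes, as mean ± SD over 18 libraries; colours give the complex. Sec13 at 61.7 stands above Seh1l at 18.8, and Wdr59 and Depdc5 are lowest at 2.92 and 2.81.

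Over the 18 libraries the members varied little. The coefficient of variation of CPM was 9.13% (Mios) to 14.6% (Depdc5), with a median of 11.5%, beside a median of 15.1% for the 6435 tested genes in the same range of CPM. The ratio of the highest to the lowest library was 1.37 (Mios) to 1.72 (Depdc5). The members did not move as one. Over the 45 pairs, the Pearson correlation of log2 CPM across the 18 libraries had a median of 0.04, from -0.68 for Wdr24 with Seh1l to 0.81 for Depdc5 with Rptor. Seh1l and Sec13 were at 0.58, and at 0.13 once group means were removed. Libraries share depth and the length tilt described above, and these values are descriptions. Among 12400 other genes, the closest to Mtor were Iars2 (0.91) and Sirt2 (0.87), to Sec13 Aimp2 (0.94) and Smarcb1 (0.93), to Seh1l Lmcd1 (0.94) and Wbscr22 (0.93), and to Wdr24 Slc46a3 (0.95) and Fuz (0.89).

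Around the members, genes of the pathway were called in the averaged IR comparison, 28 of 92 tested, a share of 30.4% beside 26.7% of all genes. Among the regulators of the Rag GTPases and of mTORC1 the called genes fell: Sesn1 of 6 sensors tested (-0.42, adjusted p = 0.00908), Itfg2 of the 4 genes of KICSTOR, which anchors GATOR1 (-0.21, adjusted p = 0.0383), Rragd and Rragb of 9 Rag and Ragulator genes, Flcn and Fnip1 of the 3 folliculin genes (-0.27 and -0.42), Tsc2 of 5 TSC and Rheb genes (-0.23) and Prkab1 of 7 AMPK subunits (-0.37). Sesn3, the third sestrin, was not called (-0.18, adjusted p = 0.511). Of all genes, 10.9% were called lower. The median log2 fold change was -0.27 for the folliculin complex, -0.18 for TSC and Rheb, -0.16 for the sensors and -0.13 for KICSTOR. It was -0.01 for the Rag and Ragulator genes and 0.01 for the AMPK subunits, so these lists did not fall as a whole. None of the 6 other mTORC1 partners and none of the 4 mTORC2 genes passed, and at an unadjusted p below 0.05 there were 0 in either list. Among the 6 groups Tti1 (adjusted p = 0.272) and Akt1s1 (adjusted p = 0.286) came first of the partners, and Rictor (adjusted p = 0.553) and Prr5 (adjusted p = 0.611) of mTORC2.

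Rragd, which encodes RagD, a Rag GTPase that acts downstream of the GATOR complexes, fell after IR in the average and in both WT kinds. Its level was 91.2, 96.2 and 99.1 CPM in Sesn2-KO IR hearts against 125, 103 and 137 CPM in Sesn2-KO sham hearts, 103, 98.5 and 115 CPM in aged IR hearts against 175, 159 and 162 CPM in aged sham hearts, and 105, 117 and 103 CPM in young IR hearts against 173, 144 and 162 CPM in young sham hearts. IR and sham libraries did not overlap in any kind of mouse. The log2 fold change averaged -0.54 ± 0.06 (adjusted p = 3.91e-05), with -0.63 in aged WT (adjusted p = 0.00375) and -0.58 in young WT (adjusted p = 0.00661). In Sesn2-KO it was -0.40 (adjusted p = 0.202), which was not called. The young WT call was lost without the length-tilted libraries (adjusted p = 0.117) and with the compared groups alone. Rragb averaged 2.62 CPM after IR and 3.77 CPM in sham hearts, a log2 fold change of -0.51 (adjusted p = 0.0323).

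Of the 17 substrates and effectors of mTORC1, 4 rose and 2 fell. Eif4ebp1, a repressor of cap-dependent translation, rose by 0.43 (adjusted p = 0.00334), Atg13 by 0.32 (adjusted p = 0.0223), Rps6 by 0.26 (adjusted p = 0.038) and Tfe3 by 0.19 (adjusted p = 0.0304). Ulk1, the kinase that starts autophagy, fell by 0.40 (adjusted p = 0.0135) and Eif4e fell by 0.23 (adjusted p = 0.024). Lpin1, a phosphatidate phosphatase, was called among the 6 groups (adjusted p = 0.039, lost in 9 of 18 fits without 1 library) and not in the average (-0.32, adjusted p = 0.0615). Sec13 and Seh1l have partners outside GATOR2. Of 8 other Y complex genes 2 rose, Nup43 (0.58, adjusted p = 0.00596) and Nup85 (0.31, adjusted p = 0.0034). Of 12 other COPII genes Sec23b (0.39, adjusted p = 0.0416) and Sec16b (0.35, adjusted p = 0.0473) rose and Sec31b fell by 0.61 (adjusted p = 0.0156). The median log2 fold change was 0.11 for the Y complex and 0.06 for COPII, and the called share of either list, 25%, was near the 26.7% of all genes.

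Amino acid genes that mTORC1 is known to induce through ATF4 rose in 9 of 11, beside 15.8% of all genes. Their median log2 fold change was 0.72. Psat1, an enzyme of serine synthesis, averaged 1.57 ± 0.16 (adjusted p = 1.13e-05) and Slc3a2, a subunit of amino acid transporters, 0.52 ± 0.08 (adjusted p = 0.000225). In sham hearts 4 of the 11 were higher in Sesn2-KO than in young WT, with Mthfd2 at 1.59 (adjusted p = 0.00825), Psat1 at 1.14 (adjusted p = 0.0285), Asns at 1.02 (adjusted p = 0.0268) and Slc3a2 at 0.60 (adjusted p = 0.0173). Of all genes 5.11% were called in that contrast, in either direction. All 4 calls were lost without the length-tilted libraries (adjusted p = 0.119, 0.273, 0.144 and 0.158). Those of Psat1, Asns and Slc3a2 were lost in 6, 4 and 4 of 18 fits that left out 1 library, each a young or Sesn2-KO sham heart. After IR none of the 11 was called between Sesn2-KO and young WT (lowest adjusted p = 0.215). In that contrast 4 of the 11 had an unadjusted p below 0.05, beside 12.7% of all genes. The median of the 11 was 0.45 after IR, beside 0.01 for all genes tested and -0.06 for the 10 members. In sham hearts it was 0.92, beside 0.02 for all genes tested and -0.03 for the 10 members. In the same sham hearts the summed neutrophil markers were 28.4 to 80.1 CPM in Sesn2-KO against 4.77 to 6.57 CPM in young WT, and the summed cardiomyocyte markers 32600 to 33000 CPM against 38700 to 39700 CPM; their part in these values was not tested. Of the 28 pathway genes called in the averaged comparison, 20 were called in all 18 fits without 1 library. The others lost their call in 1 (Atg13), 3 (Eif4e), 7 (Tfe3), 9 (Rragb), 11 (Rps6), 12 (Itfg2 and Sec23b) or 13 (Sec16b) of these fits. Without the length-tilted libraries 9 of the 28 were called, Rragd, Fnip1, Prkab1, Eif4e, Sec31b, Psat1, Phgdh, Slc3a2 and Slc7a11.

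**Figure D4:**
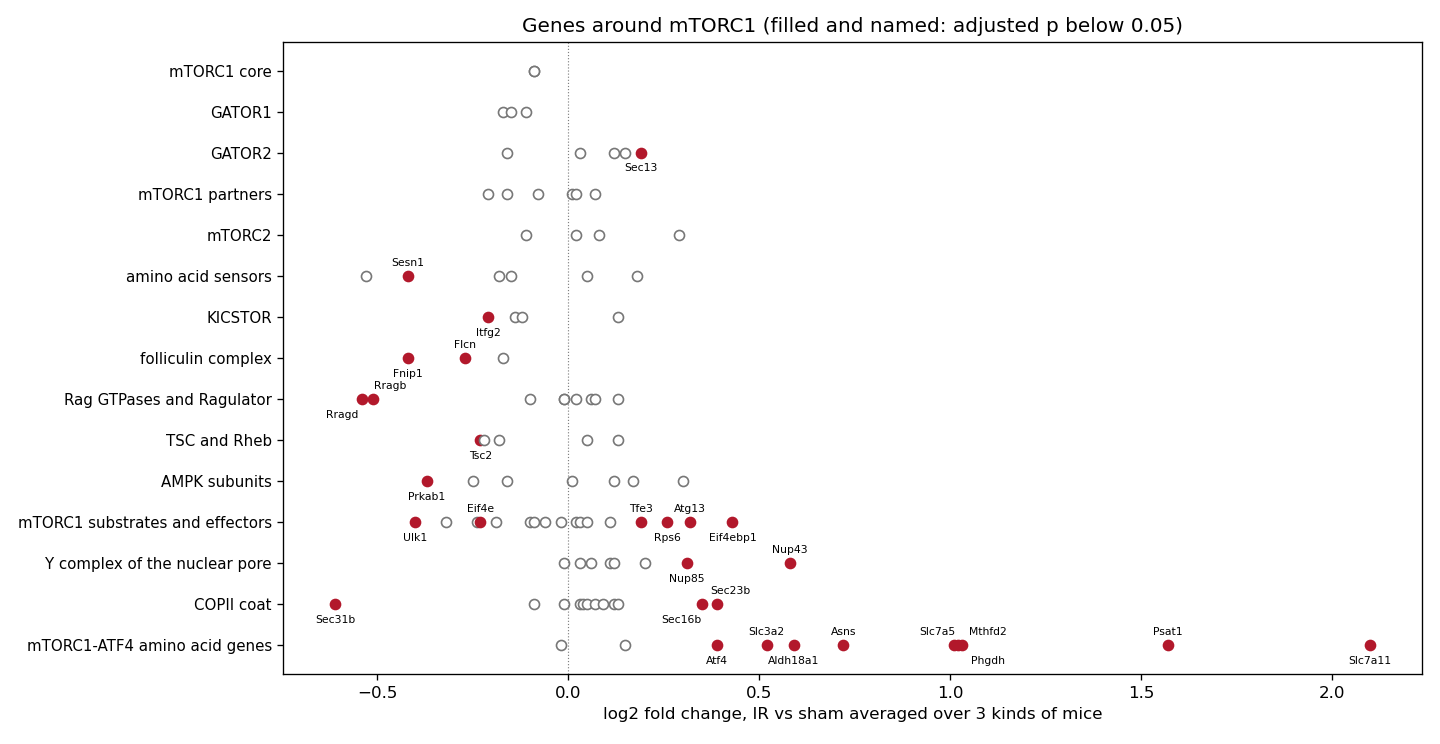
edgeR log2 fold change of IR against sham averaged over the 3 kinds of mice (x axis) for each gene of the complexes and lists (rows); filled, named points have an adjusted p below 0.05. Members lie between -0.17 and 0.19, Rragd and Rragb lie at -0.54 and -0.51, and 9 amino acid genes lie at 0.39 or more.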

How the data were processed

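Poly(A) RNA of left ventricles was sequenced as stranded, paired-end libraries (TruSeq), per the labels' protocols. The authors deposited 1 table of whole-number counts per gene and sample, not normalized. The submitters' processing notes name TopHat2, Bowtie2, HTSeq, SAMtools and FastQC and the build mm10; versions, strand setting and annotation: not given in the sources used here. Lines for fragments in no gene (6.12% to 9.06%) or in several (0.63% to 0.76%) were left out. Counting SDs cover counting error only.

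CPM used total gene counts. The test was edgeR 4.0.16 (R 4.3.3): filterByExpr (13859 of 24421 genes), TMM, robust quasi-likelihood, 1 mean per group, all 18 libraries; groups came from sample titles. The 13 comparisons were contrasts of that model, 2 of them (Sesn2-KO against aged WT) added after seeing levels. The steps were tested on simulated data. Replicates differed beyond counting noise (chi-square of 8.48 to 48.3 per degree of freedom). Alternatives were upper quartile scaling, DESeq2 size factors, no low-count filter, DESeq2 1.42.0 (likelihood-ratio test among 6 groups, Wald otherwise), limma 3.58.1 voom with quality weights, the compared groups alone, a replicate block, the slope of log2 CPM on transcript length, slope and block together, no length-tilted libraries, and each library left out. Loci and lengths came from GENCODE M21 (GRCm38), which held 95.5% of symbols.

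Members and lists were chosen with earlier results of these data known. All members and the sestrins are named; other names were drawn from the 3 genes of a list with the smallest p among the 6 groups, from genes called elsewhere and, for likeness, from the 2 genes with the highest correlation. The markers named beside Mtor were chosen after their values were seen. Of the sensors, Bmt2 was not analysed here.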

Additional observations from a re-analysis of the deposited data

How the results depend on the processing

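No value of a member changed sign while called. The number of members called moved under these settings. For IR against sham averaged over the kinds of mice (1 as reported) it was 0 with DESeq2 size factors, with upper quartile scaling, without a low-count filter and without the 6 length-tilted libraries, 4 with limma voom, 2 with the length slope, and 0 to 3 when 1 library was left out. For IR against sham in aged WT (0 as reported) limma voom called 1. For Sesn2-KO against young WT after IR (0 as reported) DESeq2 called 1. For Sesn2-KO against aged WT after IR (0 as reported) DESeq2, limma voom, the length slope and the slope with the replicate block each called 1. For any difference among the 6 groups (1 as reported) limma voom called 4 and the fit without the length-tilted libraries 0. The cause of these shifts was not tested. In the fit without the length-tilted libraries, fewer libraries and the absence of the tilted ones cannot be told apart.

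With the replicate number as a block, 1 member was called in the averaged IR comparison, 1 among the 6 groups and 0 in the others, and all 130 member results kept their side of the threshold. The numbers were not taken to pair samples: deviations of same-numbered libraries correlated at -0.39 to 0.72 (median 0.03, 16 of 45 pairs above 0.1), and those of differently numbered ones had a median of 0.00 (29 of 90 above 0.1).

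Counts over all genes varied more. In the averaged IR comparison they ran from 1278 without the length-tilted libraries to 6115 with limma voom (3700 as reported), and among the 6 groups from 607 to 6741 (2508 as reported). For Sesn2-KO against young WT they ran from 144 to 2167 in sham hearts (708 as reported) and from 4 to 258 after IR (60 as reported). With 3 libraries a group, the intervals of single members in contrasts of 3 against 3 libraries were 0.41 to 0.72 wide on the log2 scale, which limits what these libraries can resolve.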
